A study of Mus musculus with 2 samples.

Results

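TRAJ31 to TRAJ40 are neighbouring joining (J) segments in the middle of the mouse TCR alpha (TRA) locus, and the 762 TRA chains that carried a J call from TRAJ31 to TRAJ40 are described here, of 3782 productive TRA chains in all. The members were taken by the J call alone. They made up 395 of 1862 TRA chains, or 21.2% (19.4 to 23.1%), in WT and 367 of 1920, or 19.1% (17.4 to 20.9%), in Btla-/- cells. Ranges after a share are exact (Clopper-Pearson) 95% binomial intervals, which cover counting error only and neither the spread between mice nor that between library preparations.

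The libraries were made to ask whether the T cell repertoire of the thymus differs when the co-inhibitory receptor BTLA is missing. The WT library came from thymic CD4 single positive (SP) T cells of BTLA-sufficient mice (strain label C57BL/6J) and the Btla-/- library from mice with a germline deletion of Btla (strain label C57BL/6-Btla KO), all aged 8 to 12 weeks. The treatment label of the Btla-/- library held only the genotype, Btla KO, and no other treatment was named. Cells were enriched with a negative selection kit for naive CD4 T cells. With 1 library per genotype, and no number of mice given for either, no test between genotypes was possible and no p-value is given.

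A TRA chain is made in the thymocyte by joining a TRAV segment to a TRAJ segment. The RAG recombinase cuts at a recombination signal sequence, a heptamer and a nonamer with a spacer between them, that lies just 5′ of each TRAJ segment. The joint, with bases trimmed or added, forms the CDR3 loop, whose last residues come from the TRAJ segment. Joining tends to begin with 3′ TRAV and 5′ TRAJ segments and can be repeated on the same chromosome with TRAV segments further 5′ and TRAJ segments further 3′. TRAJ33 joined to TRAV1 is the semi-invariant alpha chain of mucosal-associated invariant T (MAIT) cells.

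Both libraries held TCR transcripts only, so neither the CD4 SP label nor the Btla genotype could be checked against expressed genes. Contigs without normalization numbered 6003 in WT and 7101 in Btla-/- cells, with 80347 and 75456 UMIs (unique molecular identifiers, 1 for each captured transcript). Of all cells with a contig, 1704 of 4040 WT and 1798 of 5077 Btla-/- cells had a TRA chain. There were 30 barcodes found in both libraries, and they carried 0 WT and 1 Btla-/- member chains.

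The 10 annotated segments span chr14:54177921-54187951 of GRCm38 on the plus strand, 10031 bp in length, with TRAJ40 at the 5′ end and TRAJ31 at the 3′ end, 32570 bp before TRAC, the constant gene. Annotation lists TRAJ36 as a pseudogene, and it had 0 chains in both libraries. By the exact interval this allows up to 0.198% of productive TRA chains in WT and 0.192% in Btla-/- cells. Only productive chains were held, so the 0 does not show how often TRAJ36 was joined. The other 9 segments were all used in both libraries. Their germline sequences are printed 5′ to 3′ because they fix the ends of all CDR3s described below. Capitals mark the bases that lie inside the CDR3, up to the codon of the conserved phenylalanine or tryptophan, and lower case marks the framework bases after it:
TRAJ31 (chr14:54187895-54187951): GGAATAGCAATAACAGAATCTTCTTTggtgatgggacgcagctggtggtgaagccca
TRAJ32 (chr14:54186101-54186166): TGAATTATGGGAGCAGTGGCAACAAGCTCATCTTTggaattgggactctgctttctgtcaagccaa
TRAJ33 (chr14:54185358-54185414): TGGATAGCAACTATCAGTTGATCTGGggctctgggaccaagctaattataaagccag
TRAJ34 (chr14:54184699-54184756): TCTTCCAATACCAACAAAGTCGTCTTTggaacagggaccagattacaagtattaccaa
TRAJ35 (chr14:54183774-54183838): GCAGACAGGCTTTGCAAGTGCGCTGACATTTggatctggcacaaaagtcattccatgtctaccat
TRAJ37 (chr14:54181518-54181577): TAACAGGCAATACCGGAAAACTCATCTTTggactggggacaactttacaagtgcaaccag
TRAJ38 (chr14:54180574-54180635): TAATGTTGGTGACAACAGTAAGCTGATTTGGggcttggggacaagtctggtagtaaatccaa
TRAJ39 (chr14:54179962-54180024): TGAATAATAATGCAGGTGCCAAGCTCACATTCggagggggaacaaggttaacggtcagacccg
TRAJ40 (chr14:54177921-54177981): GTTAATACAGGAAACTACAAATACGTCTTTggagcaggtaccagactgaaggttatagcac

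Read in frame, the capitals encode NSNNRIFF for TRAJ31, NYGSSGNKLIF for TRAJ32, DSNYQLIW for TRAJ33, SSNTNKVVF for TRAJ34 and QTGFASALTF for TRAJ35. The remaining segments encode TGNTGKLIF (TRAJ37), NVGDNSKLIW (TRAJ38), NNNAGAKLTF (TRAJ39) and VNTGNYKYVF (TRAJ40). They share a short hydrophobic end, and 7 of the 9 have a lysine or arginine 4 residues from the end of the CDR3, as did 26 of the 34 other TRAJ segments in use. TRAJ33 has a glutamine there and TRAJ35 an alanine. A tryptophan at the last position was found in TRAJ33 and TRAJ38 and in 0 of the 34 others, of which 32 end in phenylalanine. The members contribute between 26 bases (TRAJ31 and TRAJ33) and 35 bases (TRAJ32) to the CDR3, the same range as the other segments.

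The recombination signals just 5′ of these segments are shown for 4 members, TRAJ31 and TRAJ37 as the most used over both libraries, TRAJ34 for its match to the consensus and TRAJ33 as the MAIT segment. Capitals mark the nonamer and heptamer, and the spacer of 12 bases is in lower case:
TRAJ31 (chr14:54187867-54187894): GGTTTCAGTaaaggcaagagaTGATGTG
TRAJ33 (chr14:54185330-54185357): TGTTTTTGTtaaggtttttgtGTCTGTG
TRAJ34 (chr14:54184671-54184698): GGTTTTTGTagaacatgatatCACTGTG
TRAJ37 (chr14:54181490-54181517): AGTTTTTGTaaagtgcagcatTGGGGTG

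The consensus heptamer CACTGTG and nonamer GGTTTTTGT were searched on the plus strand only, each at its fixed place in the 28 bases before a segment. An exact heptamer was found at TRAJ34, TRAJ35, TRAJ39 and TRAJ40, 4 of the 9 segments in use, and at 15 of all 60 annotated TRAJ segments (25%). The exact nonamer was found at TRAJ34 and in 3 of the 60 (5%). TRAJ31, the most used member, matched the heptamer in 4 of 7 bases, and TRAJ37 in 3 of 7. These matches describe the letters only.

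Usage ranged widely among the 9 segments, while the intervals of each segment overlapped between the libraries. TRAJ31 was the most used member, with 93 WT chains, 4.99% (4.05 to 6.08%) of TRA chains, and 87 Btla-/- chains, 4.53% (3.65 to 5.56%). Among all TRAJ segments it had the highest share in WT and shared rank 4 in Btla-/- cells. TRAJ37, next over both libraries together, had 56 chains, 3.01% (2.28 to 3.89%), and 67 chains, 3.49% (2.71 to 4.41%).

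TRAJ40 was used by 59 WT chains, 3.17% (2.42 to 4.07%), and 46 Btla-/- chains, 2.40% (1.76 to 3.18%). For TRAJ34 the numbers were 54 chains, 2.90% (2.19 to 3.77%), and 45 chains, 2.34% (1.71 to 3.12%). TRAJ31, TRAJ34, TRAJ37 and TRAJ40 together held most member chains in both libraries.

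In the middle of the order, TRAJ33 had 38 WT chains, 2.04% (1.45 to 2.79%), and 39 Btla-/- chains, 2.03% (1.45 to 2.77%). TRAJ32 also had 38 WT chains and had 31 in the Btla-/- library, 1.61% (1.10 to 2.28%), the same number as TRAJ39, which had 25 in the WT library, 1.34% (0.871 to 1.98%). TRAJ38, with its tryptophan end, was rare, with 15 chains in each library, 0.806% (0.452 to 1.33%) and 0.781% (0.438 to 1.29%). TRAJ35 was the rarest member in the Btla-/- library, with 6 chains, 0.313% (0.115 to 0.679%), against 17 WT chains, 0.913% (0.533 to 1.46%). Its intervals overlap between the libraries.

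Ordered by share, none of the 8 pairs of neighbouring members had intervals apart in the WT or the Btla-/- library, so that members next to each other in the order could not be told apart beyond counting error. Between the libraries, 0 of the 9 members had intervals apart, where 3 of all 43 used TRAJ segments did (6.98%). A lower share in the Btla-/- library was found for 7 of the 9 members, all but TRAJ37 and TRAJ39, where 62.8% of all used TRAJ segments were lower. The median ratio of the Btla-/- share to the WT share was 0.907 over the members and 0.927 over all 43 segments, so the members lay near the background on both counts.

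**Figure D1:**
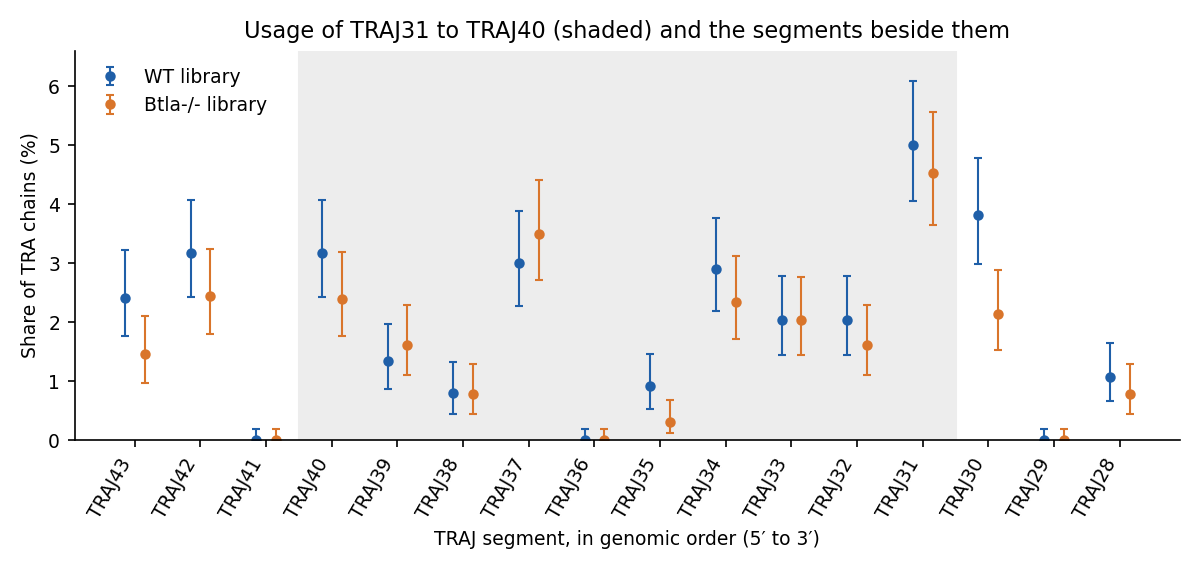
Share of TRA chains (%) that use each TRAJ segment from TRAJ43 to TRAJ28 in the WT and Btla-/- libraries, in genomic order, with points for the share and bars for the exact 95% binomial interval. The intervals of the libraries overlap for every shaded segment from TRAJ40 to TRAJ31, and TRAJ36 is at 0, as are TRAJ41 and TRAJ29 outside the shading.

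Beside the members, TRAJ30 was used by 71 WT chains, 3.81% (2.99 to 4.79%), and 41 Btla-/- chains, 2.14% (1.54 to 2.89%), with intervals apart. On the 5′ side, TRAJ42 had 59 and 47 chains and TRAJ41 had 0 in both, as had TRAJ29 beyond TRAJ30. By position, TRAJ31 to TRAJ40 lie between the 5′ segments TRAJ42 to TRAJ58 and TRAJ21 to TRAJ30. TRAJ42 to TRAJ58 held 30.1% (28.1 to 32.3%) of the WT chains and 22.9% (21.1 to 24.9%) of the Btla-/- chains. TRAJ21 to TRAJ30 held 21.6% (19.8 to 23.6%) and 20.6% (18.8 to 22.5%). The members, at 21.2% and 19.1%, held less than either group in both libraries, and their intervals overlapped those of TRAJ21 to TRAJ30. Group shares depend on the number of segments in use, 9 for the members, 13 for TRAJ42 to TRAJ58 and 8 for TRAJ21 to TRAJ30. The intervals of the libraries overlapped for the members and for TRAJ21 to TRAJ30, and lay apart for TRAJ42 to TRAJ58.

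The TRAV partners of the members came from 19 of the 20 TRAV subgroups found in the libraries, where a subgroup joins the genes of 1 number with their copies marked D or N. TRAV6 was the most frequent, with 60 WT member chains, 15.2% (11.8 to 19.1%), and 72 Btla-/- member chains, 19.6% (15.7 to 24.1%). TRAV7 came next over both libraries together, with 52 chains, 13.2% (9.99 to 16.9%), and 58 chains, 15.8% (12.2 to 20.0%). TRAV12 was joined in 54 WT chains, 13.7% (10.4 to 17.5%), and 37 Btla-/- chains, 10.1% (7.2 to 13.6%). These subgroups are large families with copies along the cluster, and they were also frequent among chains with other TRAJ segments.

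No subgroup with at least 1% of member chains, of which there were 17, had intervals apart between the libraries. Set against chains with other TRAJ segments, 1 of 20 subgroups was apart in WT and 0 in Btla-/- cells. This was TRAV8, named after its values were seen, with 5 of 395 WT member chains, 1.27% (0.412 to 2.93%), against 57 of 1467 other chains, 3.89% (2.96 to 5.01%). In the Btla-/- library its shares were 3.27% and 3.61%. By total variation distance over subgroups, where 0 means identical and 1 no overlap, the TRAJ group most like the members was TRAJ21 to TRAJ30 in both the WT (0.142) and the Btla-/- library (0.135). With the libraries pooled it was TRAJ2 to TRAJ9, at 0.101, with TRAJ21 to TRAJ30 at 0.102.

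Single members paired with different leading subgroups. TRAJ31 was joined to TRAV6 in 25 of 93 WT and 19 of 87 Btla-/- chains, 44 of 180 over both (24.4%, 18.4 to 31.4%). TRAJ37 was joined most to TRAV7, in 12 of 56 and 17 of 67 chains, and so was TRAJ33, in 9 of 38 and 9 of 39. Over both libraries together TRAV14 led for TRAJ40, in 10 of 59 WT and 7 of 46 Btla-/- chains, but TRAV12 was level with it in the WT library and TRAV7 in the Btla-/- library.

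Over both libraries, TRAV12 led for TRAJ32, with 10 of 38 WT and 3 of 31 Btla-/- chains, and for TRAJ35, with 1 of 17 and 3 of 6. TRAJ34 was joined most to TRAV6 over both, in 6 of 54 and 10 of 45 chains, although TRAV4 (8 of 54) and TRAV13 (7 of 54) were ahead in the WT library. TRAV12 and TRAV6 were level for TRAJ38, with 5 of 30 chains each over both libraries, and for TRAJ39, with 9 of 56 each. Apart from TRAV6 with TRAJ31, whose interval lay above that of the next partner (TRAV14, 6.92 to 16.6%), the interval of each leading subgroup overlapped that of the next.

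**Figure D2:**
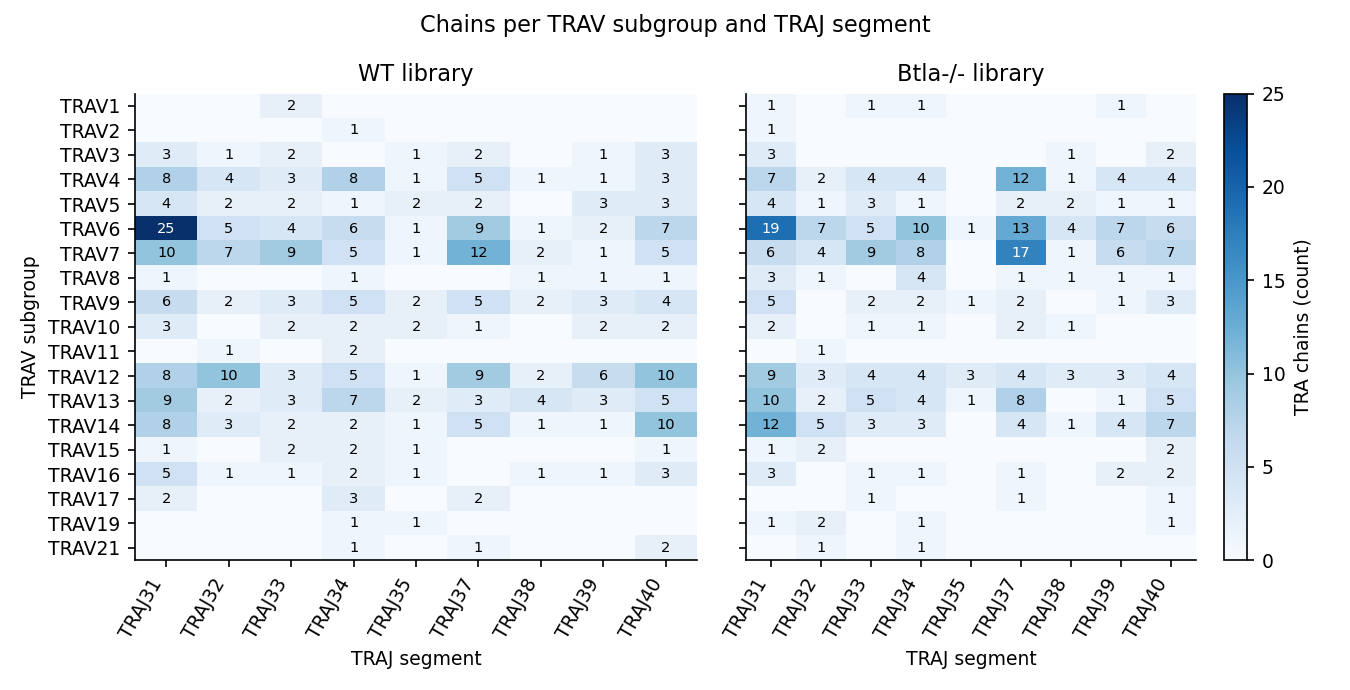
Number of TRA chains for each pair of TRAV subgroup (rows) and TRAJ segment (columns) in the WT library on the left and the Btla-/- library on the right, with darker cells for more chains and empty cells for 0. TRAV6 with TRAJ31 is the fullest cell in both libraries, with 25 and 19 chains, and TRAV1 with TRAJ33 holds 2 and 1.

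With the TRAV cluster cut into 3 parts, the position of the TRAV partner set the members apart from the TRAJ groups on either side. The 128 annotated TRAV genes span chr14:52427928-53977678, and the span was cut into 3 parts of equal length, a 5′, a middle and a 3′ part with 34, 52 and 42 genes. In the WT library 218 of 395 member chains, 55.2% (50.1 to 60.2%), used a TRAV gene of the 3′ part, the part nearest to the TRAJ segments, 121 (30.6%) one of the middle part and 56 (14.2%) one of the 5′ part. The Btla-/- library had 189 of 367, 51.5% (46.3 to 56.7%), in the 3′ part, 112 (30.5%) in the middle and 66 (18%) in the 5′ part.

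Chains with TRAJ segments 3′ of the members used the 3′ part less, at 29.8% (25.4 to 34.5%) for TRAJ21 to TRAJ30 in WT and 32.7% (28.1 to 37.5%) in Btla-/- cells. For TRAJ11 to TRAJ18 the shares were 19.4% (14.8 to 24.7%) and 16.8% (12.9 to 21.2%), and for TRAJ2 to TRAJ9 12.9% (8.95 to 17.8%) and 8.07% (5.55 to 11.3%). Chains with TRAJ42 to TRAJ58 used it more, at 69.7% (65.7 to 73.5%) and 67.5% (62.9 to 71.9%). With this cut into 3 parts, the interval of the members lay apart from those of the groups on either side in both libraries. The share of all 5 TRAJ groups then fell in their order along the chromosome from 5′ to 3′. With 2 parts of equal length, the members still lay between these neighbours, but their interval overlapped those of both in each library.

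Because D and N copies of TRAV genes are nearly identical and can be exchanged by the annotation, the position was also taken only from subgroups whose genes all lie in 1 part. Of these, TRAV1 and TRAV2 lie at the 5′ end and TRAV17 to TRAV23 at the 3′ end. Among the members, 3 WT chains used the 5′ end and 13 the 3′ end, and in the Btla-/- library 5 and 10. Chains with TRAJ21 to TRAJ30 had 9 and 0 in WT and 15 and 2 in Btla-/- cells, and chains with TRAJ42 to TRAJ58 had 1 and 69, and 2 and 53. On these few chains, too, the members stood between their neighbours.

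Within the group the share of the 3′ part was lowest for TRAJ31 in the WT library, with 34 of 93 chains, 36.6% (26.8 to 47.2%), and highest for TRAJ39, with 21 of 25, 84.0% (63.9 to 95.5%). These intervals lay apart. In the Btla-/- library TRAJ31 had 41 of 87 chains in the 3′ part, 47.1% (36.3 to 58.1%), and TRAJ39 had 18 of 31, 58.1% (39.1 to 75.5%), and their intervals overlap. TRAJ40, the member furthest 5′, had 64.4% (50.9 to 76.4%) and 58.7% (43.2 to 73.0%). TRAJ33 had 20 of 38, 52.6% (35.8 to 69.0%), and 15 of 39, 38.5% (23.4 to 55.4%), and all 6 Btla-/- chains of TRAJ35 used the 3′ part, with 9 of 17 in the WT library. TRAJ31 was thus the lowest member in 1 library and TRAJ33 in the other.

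**Figure D3:**
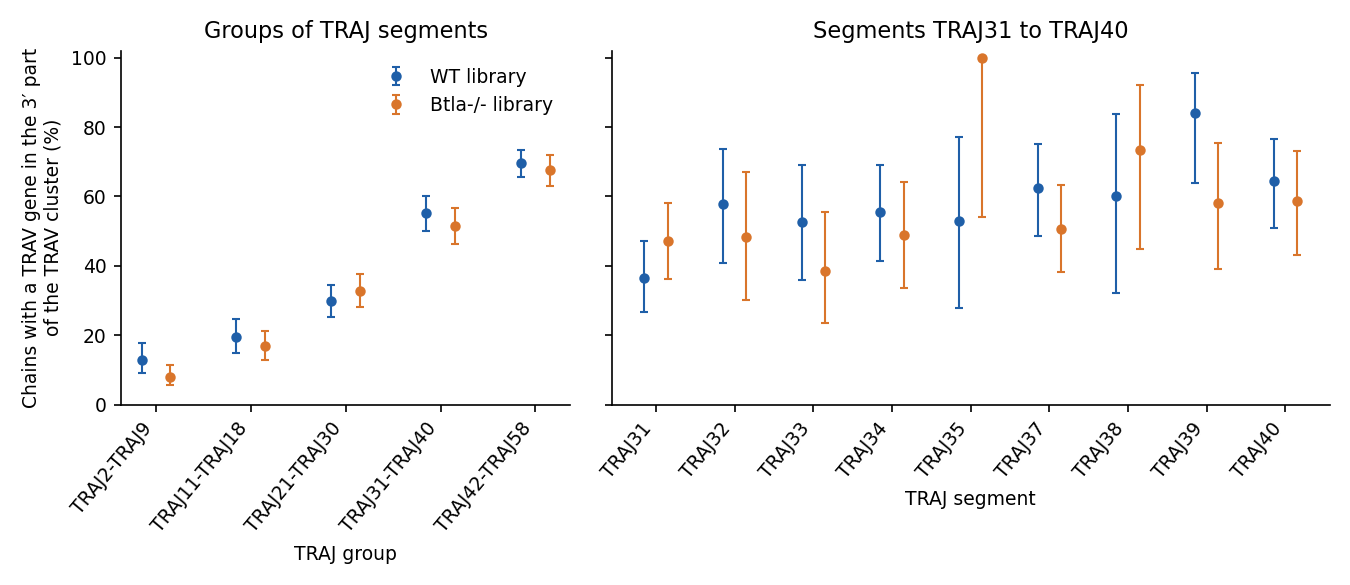
Share of chains (%) whose TRAV gene lies in the 3′ part of the TRAV cluster, by TRAJ group on the left and by single member on the right, with exact 95% binomial intervals for the WT and Btla-/- libraries. TRAJ31 to TRAJ40 lie at 55.2% and 51.5%, above TRAJ21 to TRAJ30 and below TRAJ42 to TRAJ58, and the intervals of single members are wide.

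CDR3 length of the members was lower on average than that of other TRA chains. Counted from the conserved cysteine to the phenylalanine or tryptophan, the CDR3 of member chains was 13.3 ± 1.61 amino acids (mean ± SD over 395 chains) in WT and 13.2 ± 1.54 (367 chains) in Btla-/- cells, with 13 as the most frequent length in both. Chains with other TRAJ segments had 13.9 ± 1.42 and 13.8 ± 1.47, with 14 as the most frequent length. The differences are smaller than the spread between chains. Of the other TRAJ groups, TRAJ21 to TRAJ30 lay nearest to the members, at 13.57 ± 1.34 in WT and 13.55 ± 1.32 in Btla-/- cells. The member mean includes the short CDR3s of TRAJ31, with 93 and 87 chains. The means of TRAJ32 and TRAJ38 lay above that of the other chains in both libraries. Whether the members would remain lower without TRAJ31 was not tested.

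Length among the members broadly followed the germline length of the segment. TRAJ31 had the shortest CDR3s, with 12.2 ± 1.53 amino acids in WT and 12.1 ± 1.12 in Btla-/- cells, and TRAJ32, with the longest germline part, had 14.9 ± 1.49 and 15 ± 1.33. TRAJ38 came next, at 14.4 ± 1.30 and 14.7 ± 1.03. TRAJ37 and TRAJ39 lay near 14, with 13.9 ± 1.25 and 13.9 ± 1.18 for TRAJ37 and 13.9 ± 1.24 and 13.6 ± 1.41 for TRAJ39. TRAJ40 had 13.5 ± 1.51 and 13.5 ± 1.24, and TRAJ34 had 12.9 ± 1.27 and 13 ± 1.01.

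Across the 9 members, the Pearson correlation of the germline bases inside the CDR3 with the mean length was 0.903 in WT and 0.896 in Btla-/- cells, and over all 43 used segments 0.937 and 0.914. These correlations are descriptions across segments, and the germline bases are themselves part of the CDR3. The stretch of the CDR3 before the J bases, from the TRAV gene and added bases, was 14.6 ± 3.64 bases in WT and 14.3 ± 3.22 in Btla-/- member chains, against 14.6 and 14.3 in chains with other TRAJ segments. TRAJ35 had 13.5 ± 1.37 amino acids in 17 WT and 14.3 ± 1.75 in 6 Btla-/- chains, and TRAJ33 had 12.9 ± 1.23 and 12.2 ± 1.45. Both differences between the libraries lay within 1 SD of the chains.

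**Figure D4:**
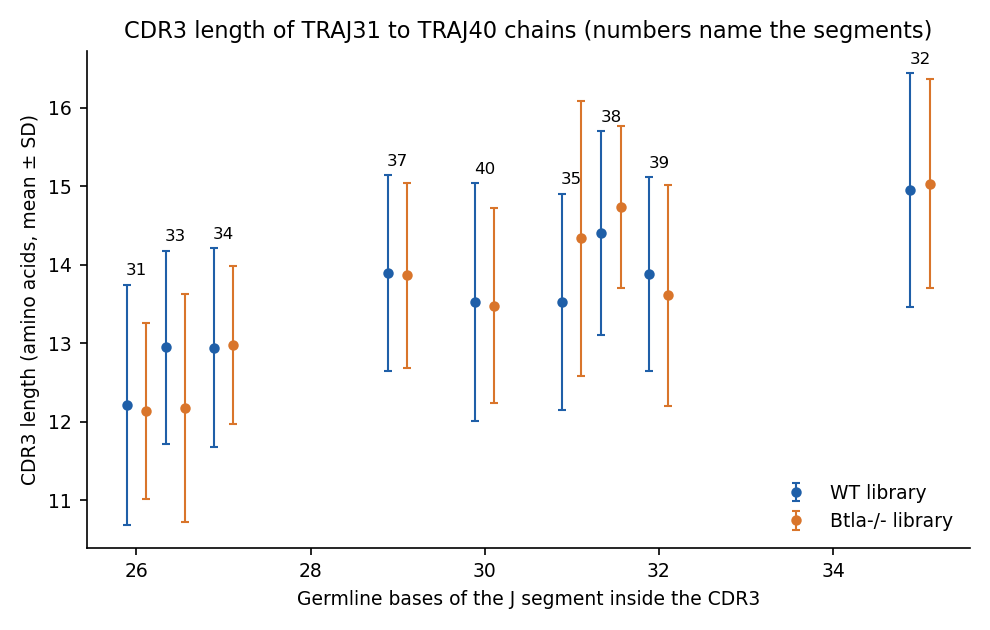
CDR3 length in amino acids (mean, with bars of 1 SD over chains) against the number of germline bases that each member adds to the CDR3, for the WT and Btla-/- libraries. TRAJ33 and TRAJ38 are drawn slightly to the right of TRAJ31 and TRAJ35, with which they share their base number, and the mean runs from 12.2 for TRAJ31 to 14.9 for TRAJ32 in the WT library.

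The J-encoded end of the CDR3 was nearly always germline. The last 6 residues were those of the germline segment in 383 of 395 WT (97.0%) and 357 of 367 Btla-/- (97.3%) member chains. Most of the exceptions were TRAJ31 chains, where 85 of 93 WT and 79 of 87 Btla-/- chains ended in NNRIFF and 5 Btla-/- chains in GNRIFF. All TRAJ32, TRAJ38, TRAJ39 and TRAJ40 chains kept their last 6 germline residues.

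At the 5′ end, the median number of J bases lost was 3 in member chains of both libraries, the same as in other TRA chains. Bases added by accident as in the germline cannot be told from kept ones. TRAJ38 kept its whole germline part in 7 of 15 chains of each library, 46.7% (21.3 to 73.4%), and lost 1 base at the median. TRAJ37 was whole in 22 of 56 WT chains, 39.3% (26.5 to 53.3%), and 22 of 67 Btla-/- chains, 32.8% (21.9 to 45.4%). TRAJ34 was whole in 29.6% (18 to 43.6%) and 42.2% (27.7 to 57.9%).

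TRAJ39 was whole in 3 of 25 and 2 of 31 chains, with a median of 5 bases lost in both libraries, and TRAJ40 in 6 of 59 and 5 of 46, with medians of 4 and 3. TRAJ31, the most used member, lost a median of 4 bases in both libraries. The medians thus lay between 1 and 2 bases for TRAJ33, TRAJ34, TRAJ37 and TRAJ38 and between 3 and 5 for TRAJ31, TRAJ32, TRAJ35, TRAJ39 and TRAJ40, with at most 1 base between the libraries for each member.

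The residues carried by the segments showed in the chains. A lysine or arginine 4 residues from the CDR3 end was found in 339 of 395 WT member chains, 85.8% (82.0 to 89.1%), and 322 of 367 Btla-/- member chains, 87.7% (83.9 to 90.9%), against 73.4% (71.1 to 75.7%) and 73.5% (71.2 to 75.7%) of chains with other TRAJ segments. These other segments differed by group. TRAJ2 to TRAJ9 lay above the members, at 89.6% and 93.2%, and TRAJ42 to TRAJ58 below, at 79.9% and 82.7%. Shares were lower for TRAJ11 to TRAJ18, at 69.6% and 64.1%, and for TRAJ21 to TRAJ30, at 57.3% and 51.9%. CDR3s that ended in tryptophan made up 53 of the WT member chains, 13.4% (10.2 to 17.2%), and 54 of the Btla-/- member chains, 14.7% (11.3 to 18.8%). None of 1467 WT and 1553 Btla-/- chains with other TRAJ segments ended so, which allows a share of up to 0.251% and 0.237%. These shares follow from which segments were used.

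TRAJ33 was joined to TRAV1, the MAIT pair, in 2 of 38 WT chains, 5.26% (0.644 to 17.7%), and 1 of 39 Btla-/- chains, 2.56% (0.0649 to 13.5%). As a share of all TRA chains this was 0.107% (0.0130 to 0.387%) and 0.0521% (0.00132 to 0.290%). All 3 chains had the CDR3 length of 12 amino acids that is usual for MAIT cells. Their CDR3s are printed from 5′ to 3′ with the bases that match germline TRAJ33 in capitals and the TRAV1 and added bases in lower case:
WT, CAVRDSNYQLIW: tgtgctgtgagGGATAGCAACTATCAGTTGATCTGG
WT, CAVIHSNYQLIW: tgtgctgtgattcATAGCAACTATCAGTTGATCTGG
Btla-/-, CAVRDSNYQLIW: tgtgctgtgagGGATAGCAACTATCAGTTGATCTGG

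The first chain of the WT library and the Btla-/- chain had the same nucleotides, encoding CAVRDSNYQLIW, and both cells had a TRBV19 beta chain, with TRBJ2-3 in the WT and TRBJ2-1 in the Btla-/- cell. TRBV19 and TRBV13 are the usual beta partners of MAIT cells. The beta chains had different CDR3s, and the cells different barcodes. The third chain encoded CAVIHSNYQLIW, had lost 3 J bases in place of 1, and was found in a WT cell with a TRBV12-1 beta chain. Depth was low, with 1 and 3 UMIs for the WT contigs and 2 for the Btla-/- contig, and with contigs of at least 3 UMIs only, the share was 4% in WT and 0 in Btla-/- cells.

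Without TRAV1, TRAJ33 chains numbered 36 in WT and 38 in Btla-/- cells, from 12 and 11 TRAV subgroups. Among them 9 of 36, 25% (12.1 to 42.2%), and 16 of 38, 42.1% (26.3 to 59.2%), also had a CDR3 of 12 amino acids, so this length alone does not mark the MAIT pair. In the Btla-/- library the chains encoding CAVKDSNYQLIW and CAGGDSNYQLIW were each found in 2 cells with a beta CDR3 in common. The interval counts such cells as independent, and no WT TRAJ33 chain was repeated. TRBV19 was found in 1 of 36 WT and 2 of 37 Btla-/- cells that had a TRAJ33 chain without TRAV1 and a beta chain, and TRBV13, with the joint call TRBV12-2+TRBV13-2, in 9 and 10. TRAV1 was joined to members other than TRAJ33 in 3 Btla-/- chains, 1 each with TRAJ31, TRAJ34 and TRAJ39, and in 0 WT chains, of 14 WT and 28 Btla-/- chains with TRAV1 in all.

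TRBV usage of cells with a member overlapped that of other cells. TRBV13 was the most frequent, in 57 of 374 WT cells with a beta chain, 15.2% (11.8 to 19.3%), and 51 of 343 Btla-/- cells, 14.9% (11.3 to 19.1%). TRBV12 was found in 41 cells, 11% (7.98 to 14.6%), and 33 cells, 9.62% (6.72 to 13.2%), and TRBV3, the next over both libraries, in 25 cells, 6.68% (4.37 to 9.70%), and 34 cells, 9.91% (6.97 to 13.6%). In the WT library alone TRBV19 (33 cells), TRBV1 (30) and TRBV2 (27) were ahead of TRBV3. Of the 19 TRBV subgroups, 0 had intervals apart between member cells and other cells with both chains in either library, and 0 between the member cells of the libraries. With the libraries pooled, TRBV13 led, alone or level with another call, for each member but TRAJ32, where TRBV12 was found in 10 and TRBV13 in 9 of 68 cells. In the Btla-/- library alone TRBV3 was ahead of TRBV13 for TRAJ31 (10 against 9 cells) and TRAJ34 (8 against 4), TRBV19 for TRAJ35 (2 against 1), and the joint call TRBV12-2+TRBV13-2 for TRAJ34 (5 against 4) and TRAJ38 (3 against 2).

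The share of cells with several alpha chains was counted for cells with a member and for other cells. More than 1 TRA chain was found in 51 of 378 WT member cells, 13.5% (10.2 to 17.4%), against 107 of 1326 other cells, 8.07% (6.66 to 9.67%), and in 40 of 357 Btla-/- member cells, 11.2% (8.13 to 14.9%), against 82 of 1441, 5.69% (4.55 to 7.01%). A cell with more chains has more chances to hold a member, so these shares are not on an equal footing. A higher share in member cells is built into this comparison, and no conclusion is drawn from it. Of the cells with 2 TRA chains, 51 of 158 in WT and 40 of 122 in the Btla-/- library held a member. Both chains were members in 17 WT and 10 Btla-/- cells. The other chain used TRAJ42 to TRAJ58 in 16 and 15 cells, TRAJ21 to TRAJ30 in 13 and 11, TRAJ11 to TRAJ18 in 3 and 2, and TRAJ2 to TRAJ9 in 2 and 2.

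As shares of the 51 and 40 cells, TRAJ2 to TRAJ9 held 3.92% (0.478 to 13.5%) and 5% (0.611 to 16.9%) of the other chains, where this group held 12.9% and 20.0% of all TRA chains. TRAJ11 to TRAJ18 held 5.88% (1.23 to 16.2%) and 5% (0.611 to 16.9%), where it held 14.1% and 17.4% of all TRA chains. For both groups the interval lies below that share in the Btla-/- library and reaches it in the WT library. Set against the interval of that share, TRAJ11 to TRAJ18 (15.7 to 19.2%) overlapped in the Btla-/- library, while TRAJ2 to TRAJ9 (18.2 to 21.9%) did not. The shares of the other chains rest on 2 or 3 cells each.

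UMI counts of member contigs were low, as were those of other TRA contigs. The median was 3 UMIs (quartiles 2 and 6, maximum 15) in WT and 2 (quartiles 2 and 4, maximum 14) in Btla-/- cells, against 3 (2 and 5) and 3 (2 and 4) for other TRA contigs. A single UMI was behind 56 WT member contigs, 14.2%, and 65 Btla-/- member contigs, 17.7%, against 13.2% and 18.9% of other TRA contigs. TRAJ35 had the lowest Btla-/- median, 1.5 UMIs, against 3 in the WT library, and with contigs of at least 3 UMIs only, its share was 0.781% in WT and 0.0955% in Btla-/- cells. The WT medians lay between 2 UMIs (TRAJ38) and 4 (TRAJ31, TRAJ37, TRAJ39 and TRAJ40), and the Btla-/- medians between 1.5 (TRAJ35) and 3 (TRAJ31, TRAJ38 and TRAJ39).

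**Figure D5:**
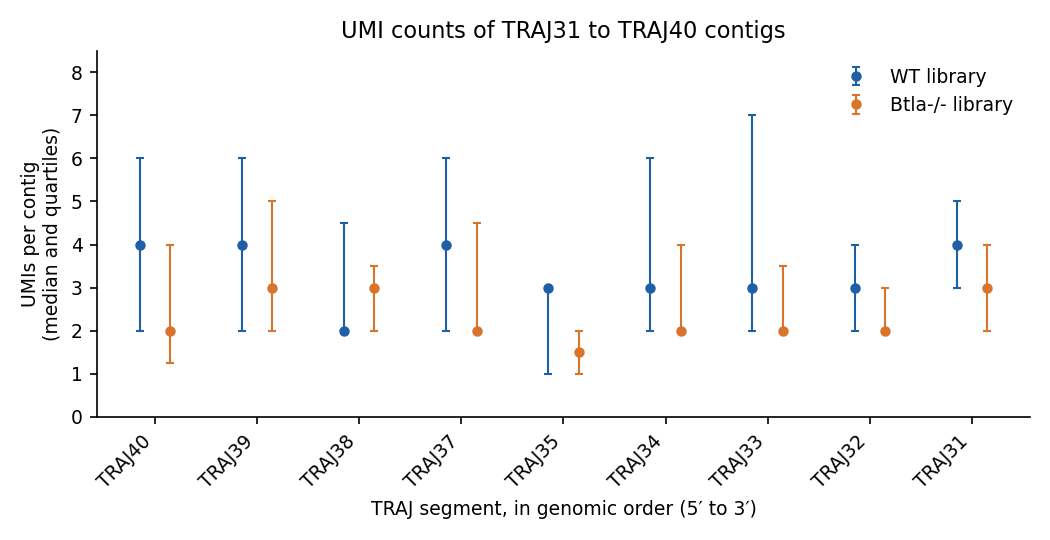
UMIs per contig (median, with bars from the lower to the upper quartile) for each member in the WT and Btla-/- libraries, in genomic order. WT medians run from 2 to 4 and Btla-/- medians from 1.5 to 3, and the quartiles of the libraries overlap for each member.

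Few member chains were found more than once, with 388 distinct chains among 395 in WT and 359 among 367 in Btla-/- cells. This was not particular to the members. With each distinct TRA chain counted once, they held 21.4% of WT and 19.4% of Btla-/- TRA chains, near their 21.2% and 19.1% of all chains. The same TRAV gene, TRAJ segment and CDR3 nucleotides occurred in several cells for 6 WT and 8 Btla-/- chains, in 13 and 16 cells. The most frequent, TRAV14-2 with TRAJ40 encoding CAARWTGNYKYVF, was found in 3 WT cells. In all 6 WT and 7 of the 8 Btla-/- cases the cells also had a beta CDR3 in common, and 3 of the Btla-/- cases were TRAJ33 chains.

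Between the libraries, 15 member CDR3s with their J call were the same in amino acids, 4% of the 375 WT and 4.36% of the 344 Btla-/- ones, and 4 in nucleotides, 1.04% and 1.11%. For other TRAJ segments the numbers were 77, 5.52% and 5.38%, and 23, 1.62% and 1.56%. Of the 15, 5 used TRAJ31 and 5 TRAJ37. Some of them occurred with several TRAV genes, such as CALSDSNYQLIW of TRAJ33, found with TRAV12-2 and TRAV6-7-DV9 in WT cells and with TRAV12D-3 in a Btla-/- cell.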

How the data were processed

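CD4 SP thymocytes were isolated with the EasySep naive CD4 kit, and TCR transcripts were amplified with the Chromium Mouse TCR kit in 1 library per genotype. The authors assembled and annotated contigs with Cell Ranger 7.2.0 against its GRCm38 V(D)J reference 7.0.0, and deposited raw read and UMI counts for each productive contig of a called cell. The deposited tables of CDR3 lengths, V gene percentages and frequent gene combinations, made from the same contigs, were not used here.

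From the contigs, TRA chains were counted by J call, TRAV and TRBV subgroup, with exact (Clopper-Pearson) 95% binomial intervals. Counts were called apart where the intervals of both libraries did not overlap. The intervals are on counts of chains and leave out the spread between mice and between library preparations, so that they understate the error. They also take no account of the few UMIs behind many contigs. Germline segments and TRAV positions were read from GRCm38 with the GENCODE M21 annotation, where all 89 TRAV genes in use were found. J bases lost were counted from the 5′ end of the germline segment to the longest matching 3′ stretch. Doublets were not removed. Scripts used Python 3.11.15, pandas 2.3.3, scipy 1.17.1 and samtools 1.23.1 and were tested on simulated data.

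Segments with at least 1 chain were named, each with its leading TRAV subgroup, and with the 3 leading TRBV subgroups of the group, all ranked over both libraries together. The members and lists were chosen with earlier results of these data known. Alternatives kept contigs with at least 3 UMIs, 1 TRA chain per cell, distinct chains, cells with 1 TRA and 1 TRB chain, or barcodes found in 1 library.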

Additional observations from a re-analysis of the deposited data

How the results depend on the processing

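With 1 library per genotype, no library could be left out and the spread between mice is unknown. No paired analysis was possible because each genotype had 1 library and no replicate numbers. Of 368 recomputed values over 74 results, 360 stayed within their interval or spread and 8 moved beyond it. The spread was 1 SD over chains for CDR3 length, J bases lost and UMIs, so staying within it is a weak check. Within it, the Btla-/- ratio of median UMIs, members over other TRA contigs, went from 0.667 to 1 with 1 TRA chain per cell. With contigs of at least 3 UMIs only, the share of TRAJ35 in the Btla-/- library fell to 0.0955% and that of TRAV1 among its TRAJ33 chains to 0. With the TRAV cluster cut into 2 parts of equal length, the 3′ part held 77.2% of WT and 74.9% of Btla-/- member chains, as it is longer by construction. For TRAJ21 to TRAJ30 it held 68.2% and 67.3%, and for TRAJ42 to TRAJ58 81.1% and 82.0%. The intervals of the members overlapped those of both groups in both libraries, so their separation depends on the cut into 3 parts. Over the TRAV subgroups that lie in 1 of the 3 parts, the 3′ part held 81.2% and 66.7%, on 16 and 15 chains. If cells called jointly as TRBV12-2+TRBV13-2 are added, TRBV13 was found in 21.9% and 23.3% of member cells. The number of members lower in the Btla-/- library was 7 under each alternative on contigs and cells but the restriction to cells with 1 TRA and 1 TRB chain, where it was 6. Low UMI counts limit TRAJ35 in the Btla-/- library, with 6 chains.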
